A study of Mus musculus with 6 samples.

Results

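Mouse articular chondrocytes labelled aging SNL were compared with and without spesolimab, an antibody against the interleukin-36 receptor. The comparison rests on 4 of the 6 libraries of the series: 2 labelled aging SNL and 2 labelled aging SNL with spesolimab, chosen by those labels alone. The other 2 libraries, labelled control, served as a reference level and added to the estimate of the spread. All 6 libraries came from primary articular chondrocytes of genotype WT, and messenger RNA was enriched with oligo(dT) beads before sequencing. The labels do not expand SNL or CCs, and the strain, age, dose and length of exposure are not given in the sources used here. Of 22173 genes listed, 17189 carried values, 4984 had empty cells and 13399 passed a filter on low counts and were tested. No label says whether the libraries of a group came from separate animals or cultures, so the p-values below measure only the spread between these libraries.

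The interleukin-36 receptor is made of the chain encoded by Il1rl2 and the co-receptor encoded by Il1rap, which the interleukin-1 receptors share. Ligand binding recruits the adaptor Myd88 and IRAK kinases, and the signal passes to NF-kB and to MAP kinases, whose outputs include chemokines, acute-phase proteins and matrix-degrading enzymes. Chondrocytes build cartilage from type II collagen and aggrecan, and cytokines of the interleukin-1 family are known to lower these matrix genes in chondrocytes while raising nitric oxide synthase, cyclooxygenase and metalloproteinases. Spesolimab is a humanised antibody raised against the human receptor and used in generalised pustular psoriasis. Its binding to the mouse receptor is not something that these libraries measure.

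The libraries held between 16566791 and 17312833 counts. The 2 aging SNL libraries were unlike each other. On the leading principal component, which took 53.8% of the variance, replicate 1 scored 67.94 while the remaining 5 libraries lay between -18.78 and -6.457. Within the aging SNL group 1857 genes (13.9%) differed by more than 2-fold between the replicates, against 349 (2.6%) within the spesolimab group and 283 (2.11%) within the control group. In that replicate 1 Col2a1 took 0.741% of all counts, where every other library gave it 4.37% to 4.79%, and Saa3, Lcn2 and Mmp3 together took 5.15%, where the others gave them 0.221% to 0.944%. All 12 chondrocyte markers were detected in every library, with Col2a1 between 2672 and 21193 TPM (transcript abundance per length, scaled to a fixed total), and the lowest marker value was 1.43 TPM for Matn3 in aging SNL replicate 1. The list medians below are therefore given against both aging SNL libraries and against each of them alone, as are the fold changes of some genes. Genes given without such a split can hang on the library as well. Against replicates 2 and 1 alone the log2 fold changes were -0.57 and -3.77 for Mmp3 and -0.61 and -2.73 for Lcn2. They were -0.42 and -2.41 for Nfkbiz and -0.45 and -2.51 for Ereg. The fits that use only 1 aging SNL library keep the spesolimab and control libraries and assume that the lone library varies like those groups.

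No gene was called different between spesolimab and aging SNL when both aging SNL libraries were used. The calls were 0 of 13399 genes (0%) at an adjusted p under 0.05 in edgeR's quasi-likelihood test with Benjamini-Hochberg adjustment. An unadjusted p under 0.05 was reached by 392 genes (2.93%), and the lowest adjusted p was 0.956. Against aging SNL replicate 2 alone the calls were again 0 of 13630 genes (0%), with 848 genes (6.22%) at an unadjusted p under 0.05 and a lowest adjusted p of 0.783. Against aging SNL replicate 1 alone, 1316 of 13727 genes (9.59%) were called higher with spesolimab and 1494 (10.9%) lower. The calls thus hung on which aging SNL library served as the comparator. Levels are given below as CPM (counts scaled to a fixed total, with scaled library sizes), fold changes as log2 of spesolimab over aging SNL from the fit of 6 libraries with the standard error (SE), and adjusted p-values from the same test. Over the 91 named genes tested in that fit the adjusted p ran from 0.956 to 0.987.

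Without regard to any test, both spesolimab libraries lay above both aging SNL libraries for 1808 of 13399 genes (13.5%) and below both for 1791 genes (13.4%). These shares are the background for the counts of list members that did not overlap. With 2 libraries against 2, an exact two-sided permutation test cannot give a p below 0.333 for a single gene. Over all tested genes the median log2 fold change was -0.00505, against -0.00091 with aging SNL replicate 2 alone and 0.0106 with replicate 1 alone. The lists were read against these medians.

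Il1rl2, which encodes the receptor chain that spesolimab is made to block, was at 57.2 and 15.9 CPM in the aging SNL libraries, at 19.2 and 14.6 CPM with spesolimab, and at 16.3 and 11.2 CPM in the controls. Its log2 fold change was -1.11 ± 0.60 (SE, 2 libraries a side; adjusted p = 0.956 by edgeR). Aging SNL replicate 1 was high and the other 5 libraries lay close together: against replicate 2 alone the log2 fold change was 0.09 ± 0.25 (adjusted p = 0.955 by edgeR), and against replicate 1 alone it was -1.76 ± 0.22 (adjusted p = 0.00317 by edgeR). The co-receptor gene Il1rap had the same arrangement, at 60.7 and 26.4 CPM without spesolimab and 35.4 and 27.4 CPM with it. Its control libraries, at 32.7 and 30.9 CPM, lay among the spesolimab values. In bulk RNA of this kind, fewer cells of a type and less RNA per cell cannot be told apart.

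Ligands of the receptor were barely read. Il1f9, which encodes interleukin-36 gamma, had 15 and 1 counts in the aging SNL libraries, 2 and 3 counts with spesolimab, and 2 and 2 counts in the controls, and did not pass the filter. The genes of interleukin-36 alpha and beta and of the receptor antagonist, listed as Il1f6, Il1f8, Il1f5 and Il36rn, had empty cells or no row. Il1a, the gene of interleukin-1 alpha, had 5 and 7 counts without spesolimab and 6 and 9 with it. These counts are too few for a test, and for Il1f9 only aging SNL replicate 1 had more than 3.

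Among other members of the interleukin-1 family, Il18bp, which encodes the soluble binder of interleukin-18, was at 4.66 and 5.30 CPM without spesolimab and at 3.09 and 3.82 CPM with it, a log2 fold change of -0.52 ± 0.24. Il1rn, the gene of the interleukin-1 receptor antagonist, was at 241 and 224 CPM without and 484 and 262 CPM with the antibody. It was named after its values were seen, as the family member whose spesolimab libraries both lay above both aging SNL libraries. Of the 11 tested family members 4 were higher in the fit and 7 lower, with a median of -0.47; against replicate 2 alone the median was 0.09 and against replicate 1 alone -0.17. The sign of this median was not stable, since it was 0.07 over the members with a mean of at least 5 CPM.

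The list of adaptors and kinases downstream of the receptor had a median of -0.06 against both libraries, -0.02 against replicate 2 alone and -0.11 against replicate 1 alone, where edgeR called 5 of 20 members lower and 0 higher. Its lowest fold change, -0.94 ± 0.45 on the log2 scale, was that of Irak3, the inhibitory IRAK family member, named after its values were seen, at 64.5 and 24.1 CPM without spesolimab and 25.6 and 20.5 CPM with it. Aging SNL replicate 1 stood alone in Irak3 while replicate 2 lay among the spesolimab libraries. Myd88, the adaptor shared by interleukin-1 family and Toll-like receptors, was at 35.3 and 33.5 CPM without spesolimab and 35.4 and 30.4 CPM with it, so the groups overlapped. Chuk, the IKK alpha kinase, was at 68.4 and 64.8 CPM without and 55.3 and 56.2 CPM with the antibody. Irak1, a kinase recruited by Myd88, was at 78.9 and 67.0 CPM without and 62.8 and 60.5 CPM with it. Chuk and Irak1 lay lower in both spesolimab libraries, by -0.26 ± 0.09 and -0.24 ± 0.11 on the log2 scale, yet over the 20 tested adaptors and kinases only these 2 lay below and 1 lay above the aging SNL range. The median of this list was 0.09 with limma on log2(TPM + 1), a scale that moved the median of all genes by 0.14.

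Feedback and target genes of NF-kB were lower in the fit for 20 of 21 tested members, with a median of -0.44. Nfkbiz, which encodes the co-activator I kappa B zeta that interleukin-36 induces in skin cells, was at 279.5 and 70.2 CPM without spesolimab and 50.3 and 54.4 CPM with it, a log2 fold change of -1.74 ± 0.62. The inhibitor gene Nfkbia was at 86.9 and 26.1 CPM without and 23.8 and 21.4 CPM with the antibody, and Tnfaip3, the gene of the deubiquitinase A20, at 16.4 and 8.07 CPM without and 5.55 and 5.12 CPM with it. For these 3 genes both aging SNL libraries lay above both spesolimab libraries, but replicate 2 by a much smaller margin. Ier3, an immediate early gene of this group, was at 103 and 62.1 CPM without and 43.7 and 50 CPM with spesolimab. In all, 9 of the 21 lay below the aging SNL range and 1 above it. The list median was -0.05 against replicate 2 alone and -0.78 against replicate 1 alone, where edgeR called 16 members lower and 1 higher.

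The immediate early genes were divided. Egr1, which encodes a zinc-finger factor induced by serum and growth factors, was at 15.5 and 14.9 CPM without spesolimab and 20.4 and 23.2 CPM with it, a log2 fold change of 0.52 ± 0.12. Nr4a1, which encodes an orphan nuclear receptor, was at 15.3 and 4.58 CPM without and 3.56 and 3.65 CPM with it, a log2 fold change of -1.46 ± 0.56. Egr1 thus lay higher by a like amount against either aging SNL library (0.55 and 0.50), while Nr4a1 was lower mainly against replicate 1 (-0.34 against replicate 2 and -2.08 against replicate 1). Of 23 tested members 5 lay above and 4 below the aging SNL range. Their median was -0.30 against both libraries, -0.04 against replicate 2 alone and -0.43 against replicate 1 alone, and it was 0.0080 with limma on log2(TPM + 1).

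**Figure D1:**
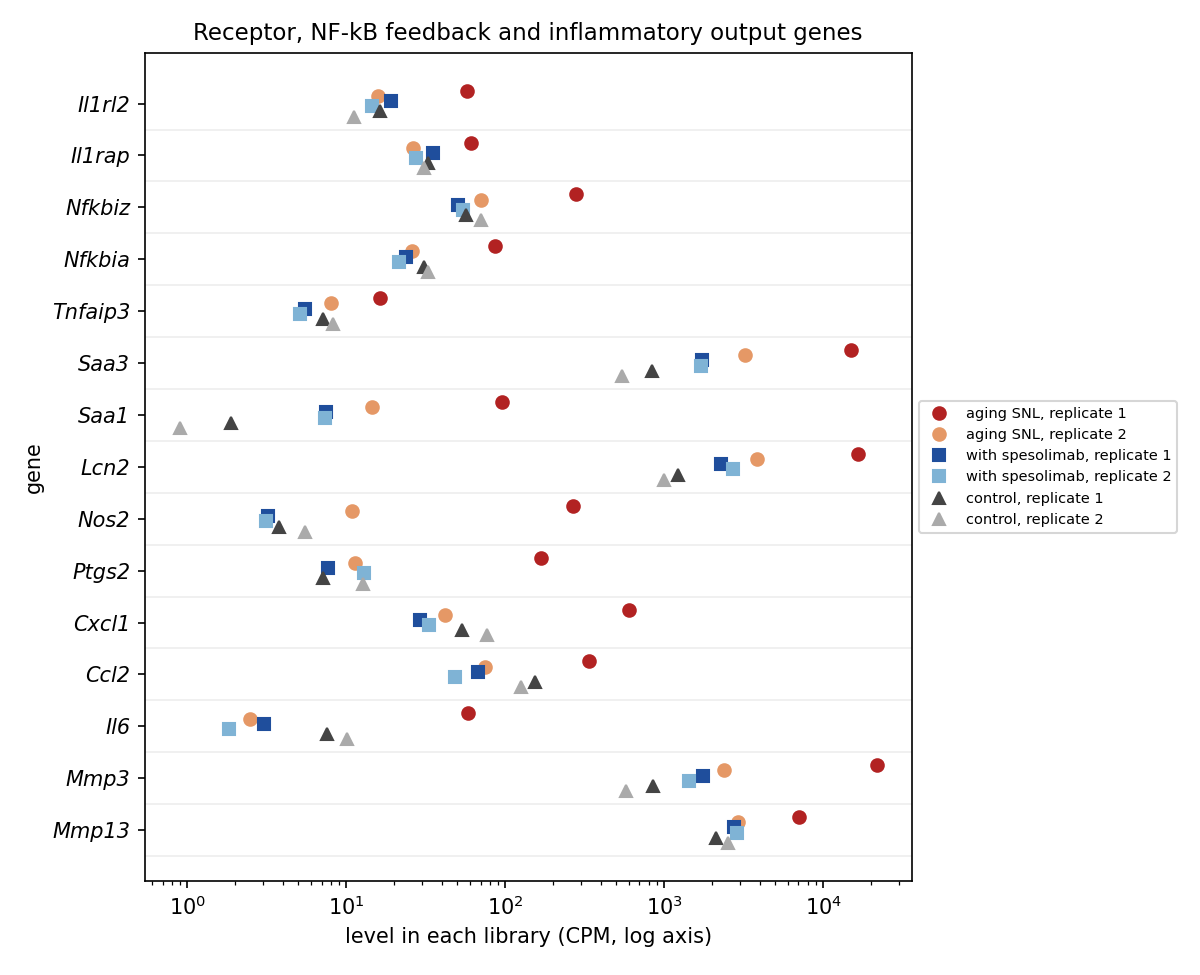
Level of 15 receptor, NF-kB and inflammatory output genes in each library, in CPM on a log axis; circles are aging SNL, squares aging SNL with spesolimab and triangles control. Aging SNL replicate 1 (dark circle) is the highest point for all 15 genes. Replicate 2 lies much closer to the spesolimab libraries, and above both of them for every gene but Il1rl2, Il1rap, Ptgs2 and Il6.

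Acute-phase genes were the inflammatory group in which both aging SNL libraries most often lay above both spesolimab libraries. Of 18 tested members 17 were lower in the fit, 10 lay below the aging SNL range and 0 above it, and the median was -1.09. Against replicate 2 alone the median was -0.31, and against replicate 1 alone it was -1.66 with 13 members called lower by edgeR. Saa3, a serum amyloid A gene expressed outside the liver, was at 15000 and 3232 CPM without spesolimab, 1727 and 1709 CPM with it, and 845 and 544 CPM in the controls. Saa3 had a log2 fold change of -2.41 ± 0.73, and against replicate 2 alone it was -0.91 ± 0.23. Lcn2, which encodes the iron-siderophore binder lipocalin-2, was at 16660 and 3819 CPM without and 2280 and 2719 CPM with the antibody, a log2 fold change of -2.03 ± 0.68. In both genes the order ran from aging SNL replicate 1 through aging SNL replicate 2 and the spesolimab libraries down to the controls.

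The liver-type serum amyloid genes followed. Saa1 was at 95.9 and 14.5 CPM without spesolimab and 7.41 and 7.35 CPM with it, and Saa2 at 60.2 and 7.23 CPM without and 4.26 and 3.06 CPM with it. The coding sequences of Saa1 and Saa2 are near-identical, so the split of reads between them is uncertain. Serpina3n, which encodes a secreted serine protease inhibitor, had the smallest difference of the members named here, at 4244 and 4679 CPM without and 3197 and 3897 CPM with spesolimab against 619 and 591 CPM in the controls. It is a member of a cluster of similar genes, and its log2 fold change was -0.33 ± 0.18. Unlike Saa3 and Lcn2, Serpina3n was no higher in aging SNL replicate 1 than in replicate 2.

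C/EBP factors are known activators of acute-phase genes. Of the 18 tested members of the acute-phase list 14 were in the promoter table, and 9 of these held a C/EBP motif (TTGCNNAA on either strand), 4 the NF-kB motif and 2 the AP-1 motif. The promoters of the 3 Saa genes and Lcn2 are shown with the C/EBP motif in capitals; they were chosen with their matches known, so that all 4 hold it is no result. The sequences are from RefSeq on GRCm38.p6, 5′ to 3′ on the gene's strand, from 250 bases before the start of transcription to 50 after it. Saa1 is read from chr7:46742931-46743230 on the minus strand, Saa2 from chr7:46751583-46751882 on the plus strand, Saa3 from chr7:46715627-46715926 on the minus strand, and Lcn2 from chr2:32387690-32387989 on the minus strand.
Saa1: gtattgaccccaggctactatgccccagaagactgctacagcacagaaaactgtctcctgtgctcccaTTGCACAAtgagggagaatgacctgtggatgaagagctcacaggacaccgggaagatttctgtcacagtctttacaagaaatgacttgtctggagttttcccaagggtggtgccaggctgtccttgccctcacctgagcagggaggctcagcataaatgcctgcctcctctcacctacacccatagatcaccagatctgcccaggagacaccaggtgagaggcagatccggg
Saa2: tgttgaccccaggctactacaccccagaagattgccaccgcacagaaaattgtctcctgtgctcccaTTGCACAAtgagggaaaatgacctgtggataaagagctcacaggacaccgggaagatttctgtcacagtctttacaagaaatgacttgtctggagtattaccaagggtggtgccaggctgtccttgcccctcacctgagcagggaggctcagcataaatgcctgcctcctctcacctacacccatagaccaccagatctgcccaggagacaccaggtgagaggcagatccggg
Saa3: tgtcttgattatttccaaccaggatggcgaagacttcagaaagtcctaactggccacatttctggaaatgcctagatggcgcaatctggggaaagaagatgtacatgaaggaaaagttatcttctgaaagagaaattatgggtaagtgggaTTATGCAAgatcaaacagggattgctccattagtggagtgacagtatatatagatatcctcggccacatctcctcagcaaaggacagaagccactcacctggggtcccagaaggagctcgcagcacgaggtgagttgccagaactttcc
Lcn2: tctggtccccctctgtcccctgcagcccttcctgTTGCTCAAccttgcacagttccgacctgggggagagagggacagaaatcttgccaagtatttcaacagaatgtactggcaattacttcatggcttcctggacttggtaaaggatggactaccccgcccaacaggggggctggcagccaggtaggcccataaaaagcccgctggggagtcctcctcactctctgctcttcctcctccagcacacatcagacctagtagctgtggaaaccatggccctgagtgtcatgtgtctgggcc

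The match lay at positions -182 to -175 from the start in Saa1, -183 to -176 in Saa2, -99 to -92 in Saa3 and -216 to -209 in Lcn2, where the Saa3 match reads on the opposite strand. Of 32841 mouse promoters of the same length 3547 (10.8%) hold this motif. Neither the NF-kB motif GGGRNNYYCC (8.46% of promoters) nor the AP-1 motif TGANTCA (7.81%) had a match in these 4 windows. Both strands were searched, and R is A or G, Y is C or T and N is any base. Sites that depart from these letters were not searched. Among the 12 genes with the largest gap below aging SNL, 8 were in the promoter table and 4 of them held the C/EBP motif, namely Saa1, Saa2, Saa3 and Vnn3, while Tnfaip3 held both others. Among the 12 with the largest gap above it, 6 were in the table, 0 held the C/EBP or AP-1 motif and 2, Bpifb1 and Myom1, held the NF-kB motif. Binding was not measured, and a match is a description of the letters.

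Chemokine genes were separated almost entirely by aging SNL replicate 1. Cxcl1, a neutrophil attractant, was at 598 and 41.8 CPM without spesolimab, 29.2 and 33.3 CPM with it and 53.4 and 76.8 CPM in the controls, a log2 fold change of -3.36 ± 1.17. Cxcl2, a close relative with the same receptor, was at 46.0 and 1.2 CPM without and 0.817 and 1.06 CPM with the antibody. Ccl2, a monocyte attractant, was at 336 and 74.5 CPM without and 67.7 and 48.1 CPM with it. The groups did not overlap in any of these 3 genes, but the log2 fold changes against replicate 2 alone were -0.42 ± 0.21, -0.36 ± 0.48 and -0.36 ± 0.21, against -4.25 ± 0.20, -5.60 ± 0.21 and -2.53 ± 0.20 with replicate 1 alone. Of 14 tested chemokines 11 were lower in the fit with a median of -1.56, and the median was 0.12 against replicate 2 alone and -2.25 against replicate 1 alone. Below the aging SNL range lay 4 of them and above it 1, Ccl9, named after its values were seen, at 21.6 and 33.4 CPM without and 52.9 and 33.5 CPM with spesolimab.

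The cytokine genes named here overlapped between the groups. Il6, an inducer of the acute-phase response, was at 58.8 and 2.47 CPM without spesolimab and 3.04 and 1.82 CPM with it, and lay at 7.60 and 10.1 CPM in the controls. Lif, of the same cytokine family, was at 5.46 and 0.361 CPM without and 0.584 and 0.118 CPM with it. Csf1, the macrophage growth factor, was at 386 and 240 CPM without and 432 and 380 CPM with spesolimab, below the controls at 687 and 617 CPM. Aging SNL replicate 1 was far above replicate 2 in Il6 and Lif and less so in Csf1. Against replicate 2 alone the log2 fold changes were -0.02 ± 0.39, -0.04 ± 0.97 and 0.76 ± 0.13, and against replicate 1 alone -4.59 ± 0.25, -3.93 ± 0.58 and 0.08 ± 0.13. The list of 13 tested cytokines had a median of -0.31 against both libraries, with 1 member below and 3 above the aging SNL range. That direction hung on replicate 1: against replicate 2 alone the median was 0.13 with 10 members higher, and against replicate 1 alone it was -0.58.

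Nos2, the inducible nitric oxide synthase, led the ranking of genes with a gap below aging SNL, given in full further down. It was at 266 and 10.8 CPM without spesolimab, 3.21 and 3.12 CPM with it and 3.77 and 5.49 CPM in the controls. The log2 fold change was -5.45 ± 1.53 (adjusted p = 0.956 by edgeR), with -1.77 ± 0.26 against replicate 2 alone and -6.38 ± 0.16 against replicate 1 alone. Ptgs2, which encodes cyclooxygenase-2, was at 168 and 11.4 CPM without and 7.71 and 13.0 CPM with the antibody, so here the groups overlapped. Over the 16 tested prostaglandin and nitric oxide genes the median was -0.76 against both libraries, -0.00389 against replicate 2 alone and -1.16 against replicate 1 alone.

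Among the matrix metalloproteinase genes Mmp3 was the lowest in fold change. Mmp3, or stromelysin-1, was at 21760 and 2365 CPM without spesolimab, 1758 and 1426 CPM with it and 854 and 579 CPM in the controls, a log2 fold change of -2.92 ± 1.00. Mmp13, the collagenase that cleaves type II collagen, was at 7019 and 2921 CPM without and 2743 and 2859 CPM with the antibody. Mmp28, or epilysin, was at 14.5 and 12.2 CPM without and 7.94 and 10.1 CPM with it, a log2 fold change of -0.57 ± 0.18. Mmp13 in aging SNL replicate 2 was nearly level with the spesolimab libraries, while Mmp28 was lower against either library (-0.43 and -0.69). Of 15 tested members 4 lay below the aging SNL range and 3 above it, and the median was -0.23 against both libraries, 0.05 against replicate 2 alone and -0.52 against replicate 1 alone.

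Among ADAMTS and plasminogen activator genes the values leaned the other way, with 8 of 20 tested members above the aging SNL range and 1 below it, and a median of 0.24 (0.34 against replicate 2 alone and 0.11 against replicate 1 alone). Plau, which encodes urokinase, was at 20.2 and 17.9 CPM without spesolimab, 38.8 and 31.8 CPM with it and 48.0 and 46.6 CPM in the controls. Its log2 fold change was 0.89 ± 0.13 (adjusted p = 0.956 by edgeR), with 0.98 ± 0.15 against replicate 2 alone and 0.81 ± 0.14 against replicate 1 alone. Plau was the named gene with the lowest unadjusted p, 0.000898. Adamts9, a versican-cleaving protease, was at 35.1 and 39.0 CPM without and 69.7 and 49.5 CPM with the antibody, and at 118 and 122 CPM in the controls. Both genes lay between aging SNL and control in each spesolimab library.

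The aggrecanases themselves did not separate. Adamts5, the main aggrecanase of mouse cartilage, was at 944 and 222 CPM without spesolimab and 372 and 350.1 CPM with it, so both spesolimab libraries lay inside the aging SNL range. Adamts4 was at 27.1 and 21.8 CPM without and 33.1 and 23.8 CPM with it. The log2 fold change of Adamts5 was 0.70 ± 0.13 against replicate 2 alone and -1.38 ± 0.13 against replicate 1 alone, opposite in sign.

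Of the protease inhibitors, Timp3, which binds metalloproteinases and aggrecanases in the matrix, was at 1898 and 3243 CPM without spesolimab, 5800 and 4435 CPM with it and 7312 and 5618 CPM in the controls. For Timp3 the log2 fold change was 0.99 ± 0.34, with 0.66 ± 0.23 against replicate 2 alone. Timp1 was at 612 and 199.9 CPM without and 245.5 and 205 CPM with the antibody, and Slpi, an inhibitor of neutrophil elastase, at 520.5 and 163 CPM without and 154 and 131 CPM with it. Timp3 was higher and Slpi lower in both spesolimab libraries, while Timp1 overlapped. The 17 tested inhibitors had a median of -0.24 against both libraries and 0.04 with limma on log2(TPM + 1). Against replicate 2 alone their median was 0.17 with 12 members higher and 5 lower, and against replicate 1 alone it was -0.36.

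Most cartilage matrix genes were lowest in aging SNL replicate 1. Col2a1, the gene of type II collagen, was at 7680 and 45390 CPM without spesolimab, 44440 and 48700 CPM with it and 45280 and 41760 CPM in the controls, a log2 fold change of 0.81 ± 0.80. Acan, which encodes aggrecan, was at 636 and 7528 CPM without and 3307 and 6488 CPM with the antibody, and Comp, the cartilage oligomeric matrix protein, at 1339 and 3272 CPM without and 3796 and 3118 CPM with it. All 3 overlapped, and against replicate 2 alone the log2 fold changes were 0.04 ± 0.19 for Col2a1, -0.62 ± 0.39 for Acan and 0.08 ± 0.18 for Comp. Of the 25 matrix genes, all tested, 21 were higher in the fit with a median of 0.50. Only 2 lay above the aging SNL range and 1 below it, shares of the list under the background. Against replicate 2 alone the median was -0.16, and against replicate 1 alone it was 1.95 with 21 members called higher and 1 lower by edgeR.

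The 2 matrix genes above the range were Ogn and Cilp2. Ogn, or osteoglycin, a small leucine-rich proteoglycan, was at 325 and 825 CPM without spesolimab and 1285 and 1070 CPM with it, against 1375 and 1090 CPM in the controls. The log2 fold change of Ogn was 1.03 ± 0.44 and stayed positive against replicate 2 alone at 0.51 ± 0.19. Cilp2, a cartilage intermediate layer protein gene, was low throughout, with 20 and 30 counts without and 52 and 37 counts with the antibody.

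Chondrocyte transcription factors overlapped for the most part, with a median of 0.01 over 22 tested genes (-0.10 against replicate 2 alone and 0.24 against replicate 1 alone), 1 above the range and 3 below it. Sox9, the factor that drives Col2a1 and Acan, was at 71.5 and 207 CPM without spesolimab and 164 and 199 CPM with it. Foxo3, a forkhead factor of cartilage maintenance, was at 150.2 and 147 CPM without and 131 and 134 CPM with the antibody, and Nfatc1, a calcium-regulated factor, at 40.4 and 40.6 CPM without and 33.6 and 34.4 CPM with it. Foxo3 and Nfatc1 were lower in both spesolimab libraries by small amounts, -0.16 ± 0.08 and -0.25 ± 0.10 on the log2 scale. The Sox9 value followed the matrix genes, being low in aging SNL replicate 1 alone.

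Glycosaminoglycan synthesis genes showed no member with both spesolimab libraries on the same side of the aging SNL range, 0 above and 0 below among 23 tested. Csgalnact1, which starts chondroitin sulphate chains, was at 215 and 335 CPM without spesolimab and 303 and 355 CPM with it. Chst3, a chondroitin sulphotransferase, was at 4.47 and 7.05 CPM without and 2.69 and 5.59 CPM with it. The list median was 0.05, and it was -0.17 against replicate 2 alone and 0.60 against replicate 1 alone.

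Hypertrophy and mineralization genes gave 4 members above and 4 below the range among 20 tested, with a median of 0.05 against both libraries, 0.00452 against replicate 2 alone and 0.55 against replicate 1 alone. Ibsp, which encodes bone sialoprotein, was at 78.9 and 73.7 CPM without spesolimab, 329 and 105 CPM with it and 289 and 183 CPM in the controls. Vegfa, the angiogenic factor of hypertrophic cartilage, was at 379 and 287 CPM without and 235 and 231 CPM with the antibody, against 200.1 and 223 CPM in the controls. Ibsp was higher and Vegfa lower in both spesolimab libraries, by 1.51 ± 0.55 and -0.52 ± 0.16 on the log2 scale. Osteoblast markers lay on the same side as Ibsp: of 6 tested members of that list, Ibsp and Col1a1 included, 5 were higher and 4 lay above the aging SNL range. The summed level of 11 members with values was 3511 and 4458 CPM without, 6302 and 5145 CPM with the antibody and 7414 and 6145 CPM in the controls. Nearly all of that sum came from Col1a1, at 3409 and 4345 CPM without, 5915 and 4998 CPM with the antibody and 7051 and 5884 CPM in the controls. The part of osteoblast-lineage cells in these values was not tested.

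**Figure D2:**
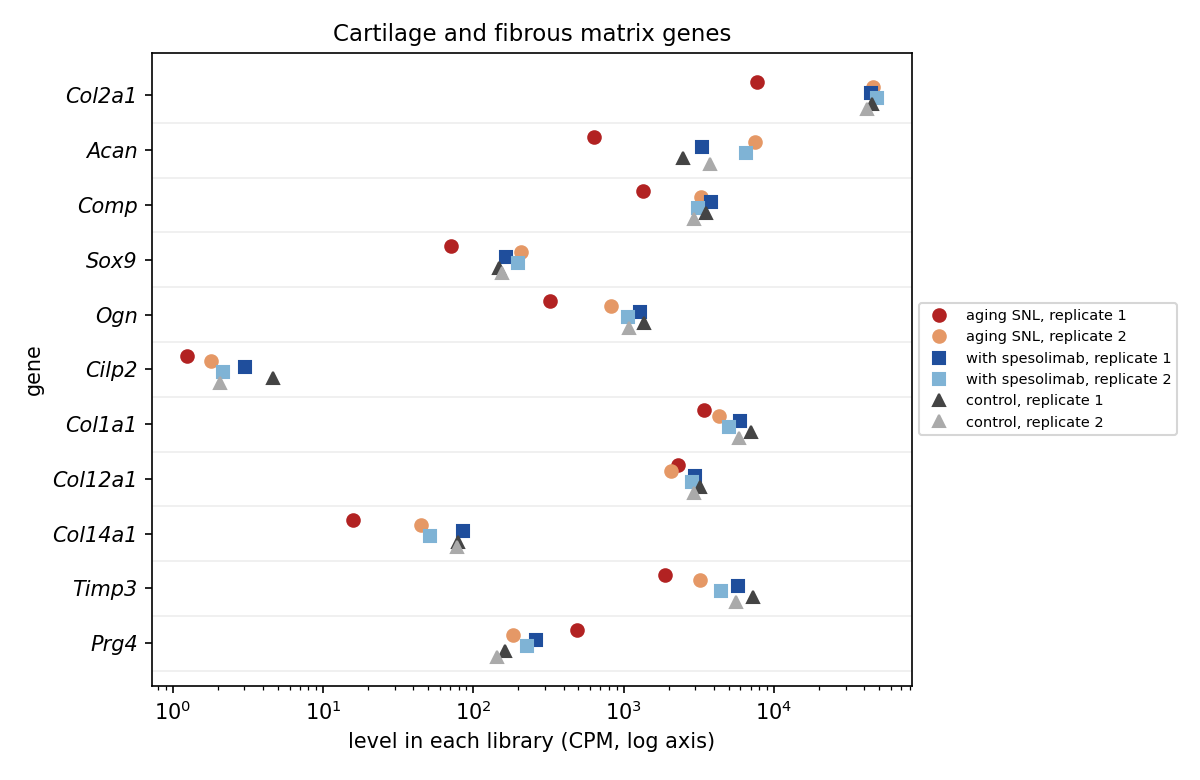
Level of 11 cartilage and fibrous matrix genes in each library, in CPM on a log axis; circles are aging SNL, squares aging SNL with spesolimab and triangles control. Col2a1, Acan, Comp and Sox9 are lowest in aging SNL replicate 1 (dark circle), with replicate 2 among the spesolimab points for Col2a1 and Comp and above them for Acan and Sox9. Both circles lie below both squares for Ogn, Cilp2, Col1a1, Col12a1, Col14a1 and Timp3.

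Collagens of fibrous tissue lay above the aging SNL range in several cases. Col1a1, the type I collagen chain of bone and fibrocartilage, was at 3409 and 4345 CPM without spesolimab, 5915 and 4998 CPM with it and 7051 and 5884 CPM in the controls, a log2 fold change of 0.49 ± 0.23. Col12a1, which encodes a collagen that coats fibrils, was at 2299 and 2063 CPM without and 3007 and 2866 CPM with the antibody, and Col14a1, a related collagen, at 16.0 and 44.9 CPM without and 85.9 and 51.2 CPM with it. For Col12a1 the fold change held against either library, 0.51 ± 0.14 and 0.36 ± 0.14 on the log2 scale. Over the 25 tested members of the list 6 lay above the range and 3 below, and the median was 0.06 against both libraries, 0.26 against replicate 2 alone and 0.04 against replicate 1 alone. Prg4, the lubricin gene of the superficial zone, was inside the aging SNL range at 261 and 228 CPM, with 488 and 184 CPM without the antibody.

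Genes of the actin cytoskeleton and targets of the factors SRF and YAP were the cartilage-cell group with the most members above the aging SNL range. Of 24 tested members 20 were higher in the fit and 14 lay above the range, with 0 below it, and the median was 0.23 against both libraries, 0.20 against replicate 2 alone and 0.31 against replicate 1 alone. Vcl, which encodes the adhesion protein vinculin, was at 155 and 145.5 CPM without spesolimab, 257 and 204 CPM with it and 403 and 313 CPM in the controls. Tpm1, a tropomyosin gene, was at 215 and 229.9 CPM without and 286 and 273 CPM with the antibody, against 476 and 440.3 CPM in the controls. The log2 fold changes were 0.62 ± 0.18 for Vcl and 0.33 ± 0.11 for Tpm1, close to their values against either library alone. Both genes lay between aging SNL and control in each spesolimab library.

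Other members above the range are named here after their values were seen. Actb, the cytoplasmic beta-actin, was at 375 and 503 CPM without spesolimab and 652 and 571 CPM with it. Ccn2, a matricellular YAP target, was at 1100 and 1314 CPM without and 2613 and 1811 CPM with it. Srf itself was at 21.0 and 23.4 CPM without and 26.4 and 25.1 CPM with the antibody. Acta2, the smooth-muscle actin, overlapped at 20.7 and 49.98 CPM without and 46.9 and 62.3 CPM with spesolimab, all below the controls at 128 and 108 CPM. Against replicate 1 alone edgeR called 6 members of this list higher and 2 lower.

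Wnt pathway genes were higher for 18 of 26 tested members, with 9 above the aging SNL range and 0 below it. The median was 0.31 against both libraries, 0.32 against replicate 2 alone and 0.29 against replicate 1 alone. Wnt4, a ligand expressed in developing joints, was at 2.61 and 5.12 CPM without spesolimab, 8.93 and 8.06 CPM with it and 3.49 and 3.25 CPM in the controls. Its log2 fold change was 1.13 ± 0.34, and here the spesolimab libraries lay above the controls as well as above aging SNL. Wnt7b, a ligand of lung and bone development, had 4 and 2 counts without, 20 and 16 counts with the antibody and 17 and 21 counts in the controls, so its log2 fold change of 2.47 ± 0.51 rests on few reads. Sfrp2, a secreted modulator of Wnt signals, was named after its values were seen, at 199.8 and 409 CPM without and 947 and 589.7 CPM with spesolimab.

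The TGF-beta and BMP pathway had 9 of 31 tested members above the aging SNL range and 2 below it, with a median of 0.03 against both libraries and 0.12 against either library alone. Id3, a target of BMP signalling that encodes an inhibitor of differentiation factors, was at 70.4 and 68.8 CPM without spesolimab, 105 and 97.9 CPM with it and 120.5 and 110.3 CPM in the controls. The log2 fold change was 0.54 ± 0.09 (unadjusted p = 0.00176, adjusted p = 0.956 by edgeR), with 0.56 ± 0.10 and 0.53 ± 0.10 against replicates 2 and 1 alone. Ligands and feedback genes named after their values were seen included Tgfb3, at 60.3 and 83.5 CPM without and 141 and 122 CPM with the antibody, and Smad6, the inhibitory SMAD, at 13.7 and 17.4 CPM without and 27.4 and 23.7 CPM with it. Grem1, which encodes a BMP antagonist, ran opposite at 1076 and 384 CPM without and 254 and 320.1 CPM with it.

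Growth factor genes of the FGF, EGF, IGF and VEGF families had 3 of 29 tested members above the range and 1 below it, with a median of -0.06 against both libraries and 0.09 with limma on log2(TPM + 1). The aging SNL library set the direction: against replicate 2 alone the median was 0.12 with 20 members higher, and against replicate 1 alone it was -0.24 with 18 lower, where edgeR called 5 higher and 7 lower. The member below the range was Ereg, which encodes the EGF receptor ligand epiregulin. It was at 78.2 and 18.7 CPM without spesolimab and 12.7 and 14.7 CPM with it, a log2 fold change of -1.82 ± 0.66.

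Proliferation genes were split between replication and mitosis. Mki67, a marker of cycling cells, was at 34.0 and 34.0 CPM without spesolimab and 32.9 and 33.7 CPM with it, against 84.2 and 114 CPM in the controls. Mki67 had a log2 fold change of -0.03 ± 0.16, and all 4 compared libraries lay well below both controls. Of 28 tested replication genes 20 were higher in the fit, 8 lay above the aging SNL range and 1 below, with a median of 0.19 (0.17 against replicate 2 alone and 0.24 against replicate 1 alone). Mcm3, a subunit of the replicative helicase, was at 6.39 and 8.91 CPM without and 13.6 and 10.5 CPM with spesolimab, and Pole, a replicative polymerase, at 2.92 and 2.59 CPM without and 5.14 and 4.0 CPM with it. Both stayed under the controls, at 21.3 and 24.8 CPM for Mcm3 and 9.54 and 13.5 CPM for Pole.

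Of 26 tested mitosis genes 21 were lower in the fit, 9 lay below the range and 0 above it, with a median of -0.21. Ccnb1, the mitotic cyclin B1, was at 12.5 and 9.45 CPM without spesolimab and 8.06 and 7.53 CPM with it, and Ndc80, a kinetochore protein, at 3.04 and 2.71 CPM without and 1.93 and 1.94 CPM with it. The medians for mitosis were -0.04 against replicate 2 alone and -0.36 against replicate 1 alone, so most of the difference sat with replicate 1.

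Genes of p53, CDK inhibitors and senescence had 9 of 24 tested members below the aging SNL range and 3 above it, with a median of -0.13 against both libraries, -0.05 against replicate 2 alone, -0.13 against replicate 1 alone and 0.04 with limma on log2(TPM + 1). Bax, a p53 target that promotes apoptosis, was at 74.6 and 58.6 CPM without spesolimab and 49.9 and 53.5 CPM with it. Rb1, the retinoblastoma gene, was at 27.3 and 19.4 CPM without and 17.3 and 16.2 CPM with it. Against replicate 2 alone the log2 fold changes were -0.18 ± 0.09 for Bax and -0.21 ± 0.12 for Rb1.

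Glycolysis and hypoxia-response genes were lower with spesolimab against either aging SNL library. Of 26 tested members 25 were lower in the fit, and 16 lay below the aging SNL range with 0 above it. The median was -0.30 against both libraries, -0.36 against replicate 2 alone and -0.29 against replicate 1 alone. With limma on log2(TPM + 1) it was -0.14, on a scale where the median of all genes was 0.14. Ddit4, a hypoxia- and stress-induced inhibitor of mTORC1, was at 51.3 and 53.5 CPM without spesolimab, 29.7 and 32.9 CPM with it and 28.9 and 36.6 CPM in the controls. Its log2 fold change was -0.74 ± 0.14 (unadjusted p = 0.00256, adjusted p = 0.956 by edgeR), with -0.77 ± 0.15 and -0.71 ± 0.15 against replicates 2 and 1 alone.

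Further members below the range are named here after their values were seen. The glucose transporter gene Slc2a1 was at 261 and 238.5 CPM without spesolimab and 158 and 196 CPM with it. The lactate dehydrogenase gene Ldha was at 1531 and 1201 CPM without and 863 and 944 CPM with it, and the lactate exporter gene Slc16a3 at 153 and 179.7 CPM without and 112 and 137 CPM with it. In the controls Slc2a1 was at 137 and 150.3 CPM, below the spesolimab libraries, and Ldha at 879.5 and 1048 CPM, a range that overlapped theirs. Eno1, Gapdh and Pfkl, glycolytic enzymes of the same list, overlapped, with aging SNL replicate 1 inside or below the spesolimab range. Ndrg1, a hypoxia-induced gene, was the only member higher in the fit, at 108.5 and 215 CPM without and 234 and 194 CPM with the antibody. Against replicate 1 alone edgeR called 9 members lower and 1 higher.

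**Figure D3:**
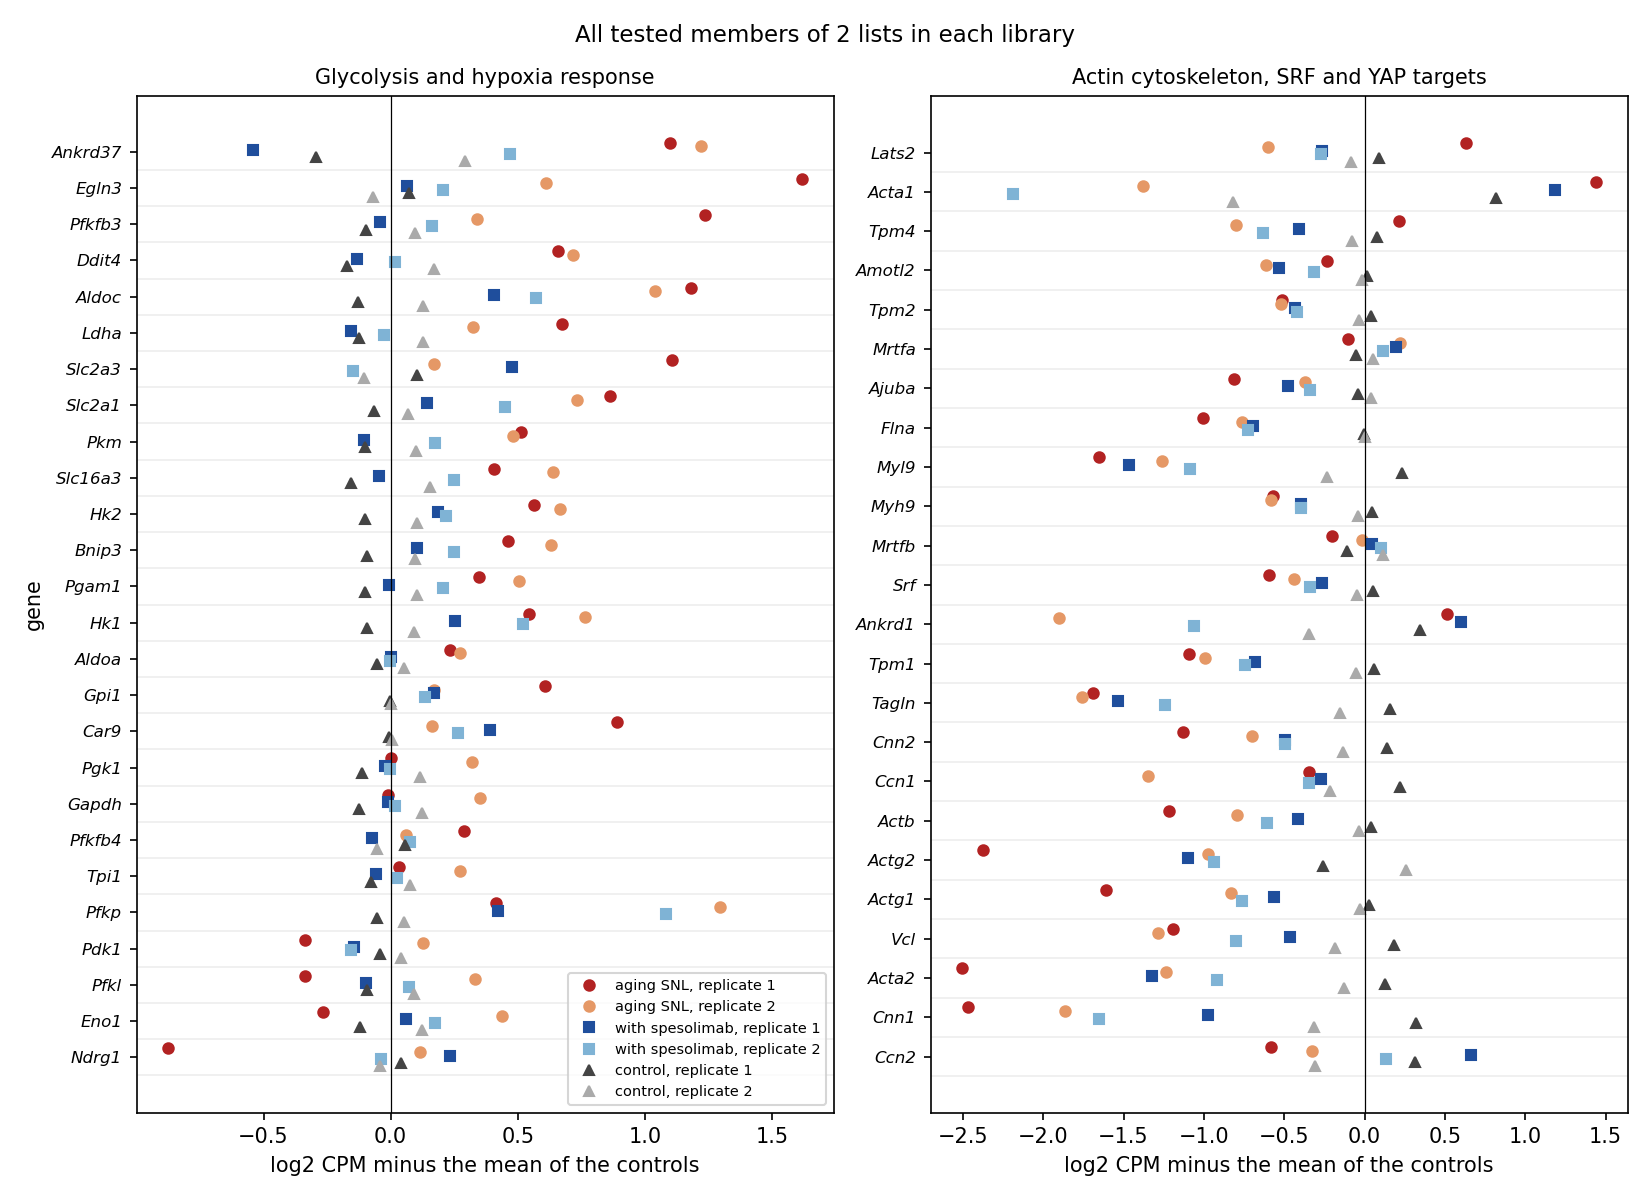
Every tested member of 2 lists in each library, as log2 CPM minus the mean of the 2 controls (vertical line at 0); circles are aging SNL, squares aging SNL with spesolimab and triangles control. For 16 of 26 glycolysis and hypoxia genes both circles lie right of both squares, and for 14 of 24 actin, SRF and YAP genes both circles lie left of both squares.

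Other metabolic lists had smaller medians or differed mainly against replicate 1. Cholesterol synthesis genes were lower for 21 of 24 tested members with 6 below the range, and their median was -0.15 against both libraries, -0.14 against replicate 2 alone, -0.09 against replicate 1 alone and 0.0054 with limma on log2(TPM + 1). Msmo1, a sterol methyl oxidase gene, was at 103 and 88.5 CPM without spesolimab and 71.3 and 81.5 CPM with it. Nrf2 and glutathione genes were lower for 24 of 26 tested members, and 10 lay below the aging SNL range with 0 above it. Their median was -0.42 against both libraries, -0.01 against replicate 2 alone, where 13 members were higher and 13 lower, and -0.81 against replicate 1 alone. Nqo1, a quinone reductase induced by Nrf2, was at 97.0 and 55.5 CPM without and 26.7 and 41.8 CPM with the antibody, against 20.3 and 23.9 CPM in the controls. Nqo1, the member of its list with the lowest p, was lower against replicate 2 alone as well, by -0.70 ± 0.23 on the log2 scale. That follows in part from the choice.

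Zinc transport genes had 3 of 16 tested members below the range and 0 above it, with a median of -0.18 against both libraries, -0.08 against replicate 2 alone, -0.24 against replicate 1 alone and 0.02 with limma on log2(TPM + 0.1). Slc39a8, which encodes the zinc importer ZIP8 that drives matrix proteases in mouse osteoarthritis, was at 218.5 and 77.0 CPM without spesolimab, 55.1 and 64.4 CPM with it and 17.3 and 11.3 CPM in the controls. Respiratory chain genes had a median of -0.05 over 26 tested members (-0.03 against replicate 2 alone and -0.04 against replicate 1 alone), with 0.12 under limma on log2(TPM + 1), and 4 lay below the range with 0 above it. Cox5a, a cytochrome oxidase subunit gene, was at 41.0 and 41.5 CPM without and 37.0 and 36.8 CPM with it. The unfolded protein response list had a median of -0.00317 over 25 tested members (-0.03 against replicate 2 alone and 0.06 against replicate 1 alone), with 0.18 under limma on log2(TPM + 1). Its Creld2, induced by stress of the endoplasmic reticulum, overlapped between the groups at 70.1 and 44.0 CPM without and 38.0 and 46.5 CPM with spesolimab.

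Clock and glucocorticoid-response genes had 4 of 21 tested members below the aging SNL range and 2 above it. Arntl, the core clock gene that encodes BMAL1, was at 9.62 and 13.1 CPM without spesolimab and 6.13 and 8.0 CPM with it, a log2 fold change of -0.69 ± 0.23. The list median was -0.28 against both libraries, 0.08 against replicate 2 alone and -0.52 against replicate 1 alone. Arntl, the member of its list with the lowest p, was lower against replicate 2 alone as well (-0.89 ± 0.20). That follows in part from the choice.

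Interferon, MHC class I and complement genes formed separate lists. Gbp2, an interferon-induced GTPase, was at 27.2 and 16.4 CPM without spesolimab and 12.7 and 12.4 CPM with it, while its list of 22 tested interferon-stimulated genes had a median of 0.09, with 4 members below the range and 1 above. The direction of that list also hung on the library, since the median was -0.12 with 17 members lower against replicate 2 alone and 0.29 against replicate 1 alone. H2-Q6 and H2-Q9, non-classical MHC class I genes, were at 5.90 and 6.08 CPM and at 8.94 and 6.08 CPM without the antibody, against 4.03 and 4.18 CPM and 4.15 and 4.0 CPM with it. These are near-identical gene copies, so the split of reads between them is uncertain. Of 20 tested class I presentation genes 17 were lower in the fit with a median of -0.24, and the median was 0.02 against replicate 2 alone and -0.30 against replicate 1 alone. C5ar1, the complement C5a receptor gene, had 3 and 4 counts without and 18 and 9 counts with spesolimab, and its list of 22 complement genes had a median of 0.09 that was -0.15 over members with a mean of at least 5 CPM, 0.28 against replicate 2 alone and 0.02 against replicate 1 alone.

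**Figure D4:**
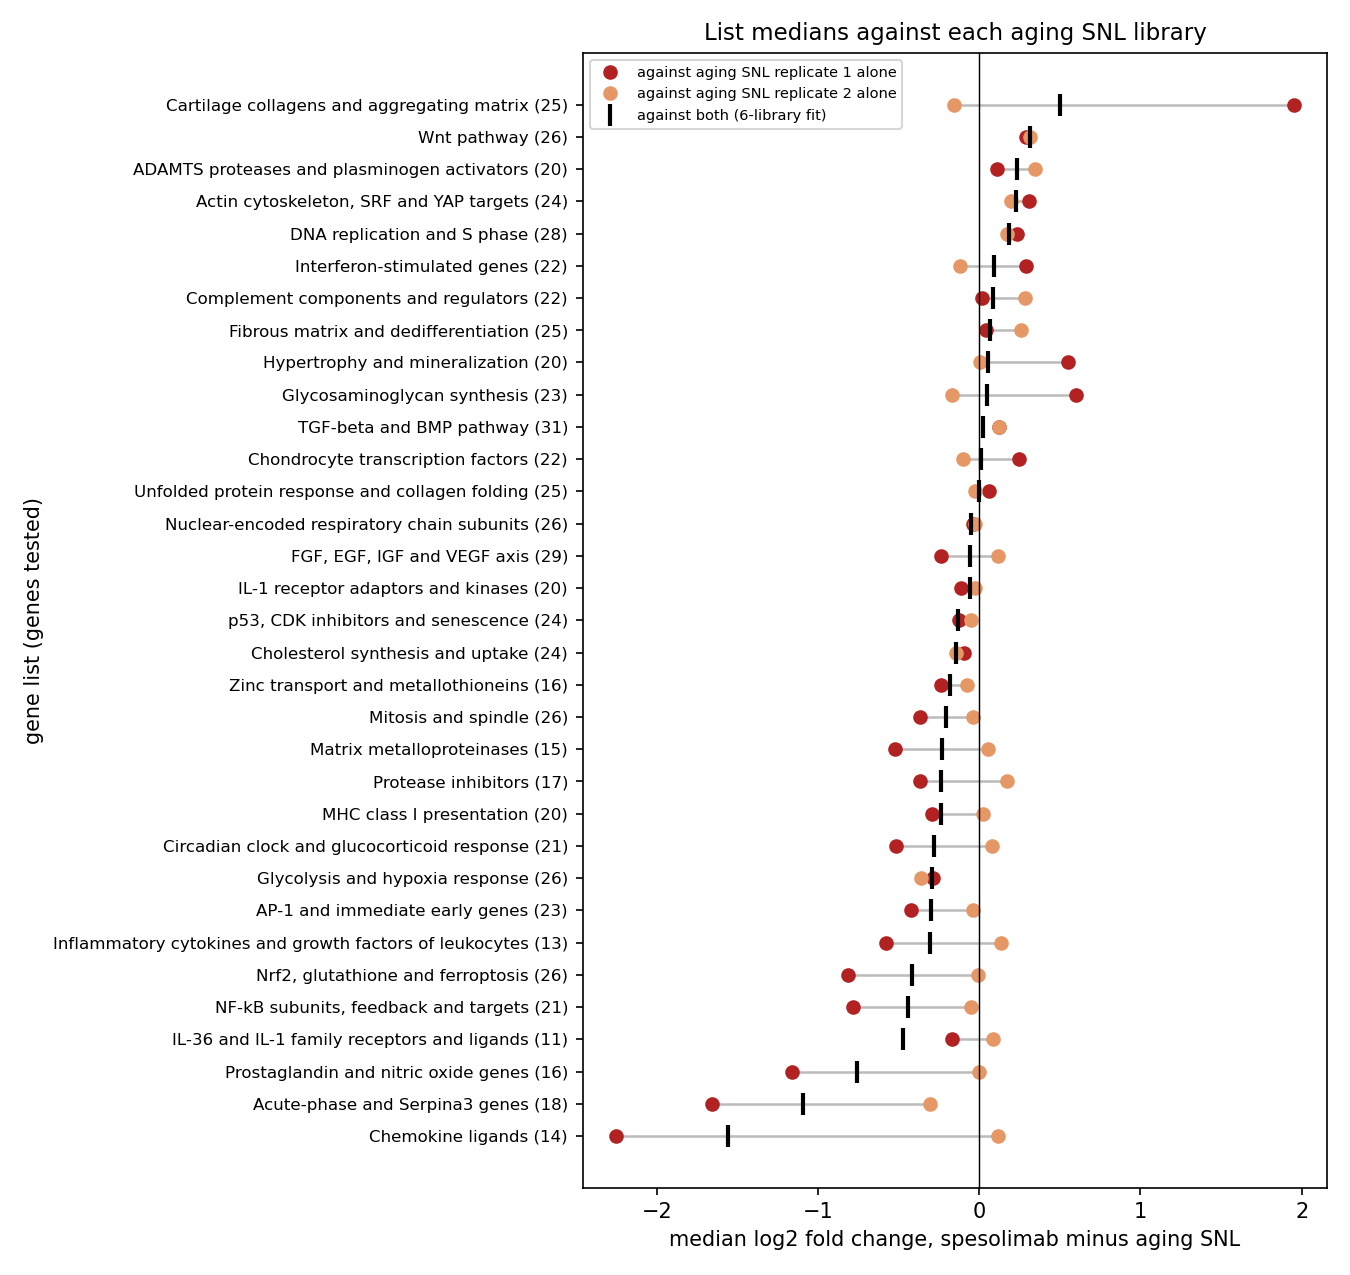
Median log2 fold change of each of 33 gene lists, spesolimab minus aging SNL, against replicate 1 alone (dark circles), replicate 2 alone (light circles) and both (black bars); the number of tested genes is in parentheses. Both circles lie on the same side of 0 and close together for the glycolysis, actin and Wnt lists, while the chemokine and cartilage collagen lists change sign between the libraries.

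The 12 genes with the largest gap above aging SNL were ranked on the log2 scale. The gap was the distance between the lower spesolimab library and the higher aging SNL library. This choice sets the sign of the fold change against either aging SNL library. Adcy1, an adenylate cyclase gene, led at 5.65 and 4.70 CPM without spesolimab, 17.0 and 12.4 CPM with it and 21.9 and 11.5 CPM in the controls, a log2 fold change of 1.51 ± 0.36. Npr3, the clearance receptor for natriuretic peptides, was at 43.0 and 39.3 CPM without and 145.5 and 74.4 CPM with it, a log2 fold change of 1.42 ± 0.40. Myom1, a sarcomere protein gene, was at 3.17 and 3.19 CPM without and 8.58 and 5.76 CPM with it. These 3 had nearly equal values in both aging SNL libraries, and the log2 fold change of Adcy1, for example, was 1.65 ± 0.44 and 1.38 ± 0.43 against replicates 2 and 1 alone.

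Bpifb1, a gene of secreted lipid-binding proteins, was at 9.38 and 8.67 CPM without spesolimab and 30.4 and 17.1 CPM with it. St6galnac2, a sialyltransferase gene, was at 3.66 and 5.06 CPM without and 9.52 and 8.35 CPM with it. Htra4, a serine protease gene, was at 2.42 and 7.65 CPM without and 15.9 and 12.3 CPM with the antibody. In these 3 genes both spesolimab libraries also lay above both controls.

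Sh3rf2, which encodes a ring-finger scaffold protein, was at 5.03 and 8.31 CPM without and 19.9 and 13.2 CPM with spesolimab, and Ndnf, a secreted neurotrophic factor gene, at 2.73 and 10.3 CPM without and 18.9 and 15.2 CPM with it. Flrt1, a transmembrane adhesion gene, was at 2.67 and 4.64 CPM without and 7.005 and 9.76 CPM with it. Svopl, a gene of the transporter superfamily, was at 1.68 and 3.55 CPM without and 9.63 and 5.65 CPM with it. Together with Plau and Wnt4, described above, they complete the 12, whose log2 fold changes ran from 0.89 for Plau to 1.54 for Svopl.

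The 12 genes with the largest gap below aging SNL were Nos2, Vnn3, Vnn1, Saa1, Saa3, Rsc1a1, Saa2, Lvrn, Ddit4, Slc16a10, H2-Q9 and Tnfaip3. Here too the choice sets the sign of the fold change against either aging SNL library. Vnn1, a pantetheinase gene, was at 469 and 31.3 CPM without spesolimab, 11.4 and 14.8 CPM with it and 15.7 and 26.1 CPM in the controls, a log2 fold change of -4.25 ± 1.26. Vnn3, its relative in the vanin family, was at 91.9 and 8.73 CPM without and 2.98 and 3.29 CPM with it, a log2 fold change of -4.0 ± 1.11. Against replicate 2 alone they were -1.26 ± 0.28 and -1.48 ± 0.25. In Vnn1, as in Nos2, the spesolimab libraries lay below both controls, and in Vnn3 they lay above both.

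Lvrn, which encodes the aminopeptidase laeverin, was at 16.8 and 3.25 CPM without spesolimab and 2.04 and 1.82 CPM with it, against 5 and 5 counts in the controls. Rsc1a1, which encodes a regulator of solute carriers, was at 10.8 and 10.9 CPM without and 5.72 and 5.82 CPM with it. Slc16a10, an aromatic amino acid transporter gene, was at 8.63 and 6.02 CPM without and 3.15 and 4.06 CPM with the antibody. Rsc1a1 and Ddit4 had nearly equal values in both aging SNL libraries, and for Rsc1a1 the log2 fold change was -0.92 ± 0.23 and -0.90 ± 0.23 against replicates 2 and 1 alone.

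**Figure D5:**
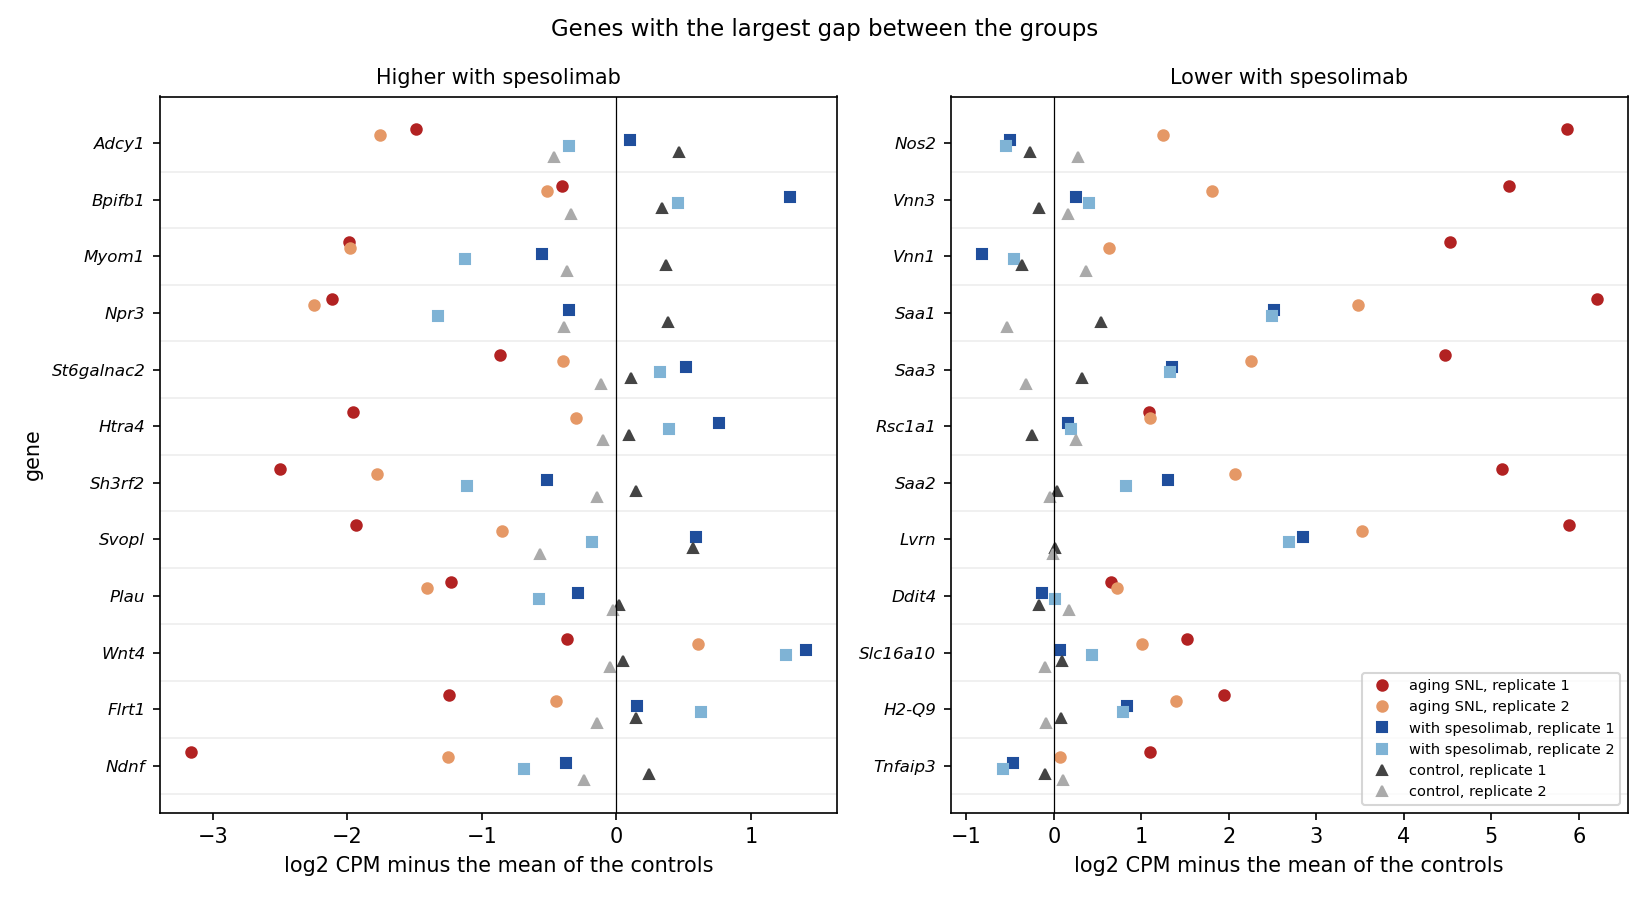
The 12 genes with the largest gap above aging SNL (left) and the 12 with the largest gap below it (right) in each library, as log2 CPM minus the mean of the 2 controls (vertical line at 0); circles are aging SNL, squares aging SNL with spesolimab and triangles control. On the left both circles lie left of both squares; on the right the dark circle of aging SNL replicate 1 is far out for Nos2, Vnn1, Vnn3 and the Saa genes and level with replicate 2 for Rsc1a1 and Ddit4.

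Markers of other cell types were read for the same libraries. The summed level of 20 macrophage markers was 192 and 54.6 CPM without spesolimab, 205 and 54.5 CPM with it and 157 and 39.9 CPM in the controls, so it was high in replicate 1 of every group and did not separate the groups. Of 16 endothelial and mural markers the sum was 199 and 559 CPM without and 357 and 532 CPM with the antibody. In the controls it was 317 and 414 CPM, so replicate 1 was lower in every group. Most of the sum without and with the antibody came from Cspg4, at 143 and 502 CPM and at 308 and 479 CPM. Cspg4 was low in aging SNL replicate 1. Osteoclast markers summed to 248 and 180.3 CPM without spesolimab, 207 and 166 CPM with it and 162 and 154 CPM in the controls. Superficial-zone and synovial fibroblast markers summed to 3983 and 2809 CPM without, 3702 and 3049 CPM with spesolimab and 3621 and 2802 CPM in controls. Both sums were higher in replicate 1 of every group. Adipocyte and muscle markers, at 312 and 275 CPM without and 447 and 227 CPM with spesolimab, were also higher in replicate 1 of each group. Keratinocyte markers stayed between 19.9 and 26.0 CPM in all 6 libraries. Of 16 neutrophil and lymphocyte markers 9 had empty cells. The rest summed to 4.72 and 5.06 CPM without spesolimab, 1.11 and 2.29 CPM with it and 1.428 and 1.401 CPM in the controls. Both aging SNL libraries thus lay above both spesolimab and both control libraries, at low levels throughout. Most of the aging SNL sum came from the 1 tested member, at 3.23 and 4.64 CPM. That member was at 0.467 and 1.94 CPM with spesolimab and at 1.14 and 0.73 CPM in the controls. It lay below the aging SNL range, with a log2 fold change of -1.7. The log2 fold change was -1.94 against replicate 2 alone and -1.42 against replicate 1 alone. No marker with values was at 0 in all 4 compared libraries. Cytosolic ribosomal protein genes had a median of 0.06, with 9 of 24 above the aging SNL range; it was 0.16 with all 24 higher against replicate 2 alone and -0.04 with 13 lower against replicate 1 alone. The part of any of these cells in the differences above was not tested.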

How the data were processed

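The 6 libraries were grouped by the condition in their labels. The authors' deposited table gives, for each gene and library, expected counts, TPM and FPKM under its column headers; the submitters' processing notes name, without their roles, GRCm39 as the build, DESeq2 1.4.5, RSEM 1.3.1 and Bowtie2 2.3.4.3. The 6 FPKM columns and 9 columns of group averages were not used. Of the expected counts that the authors deposited, 12.3% were not whole; they were rounded. The deposited TPM values entered only alternatives and the marker check. Whether counting used strand is not stated, so overlapping genes cannot be told apart.

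Counts were analysed in R 4.3.3 with edgeR 4.0.16: filterByExpr (minimum count 10, minimum total 15), TMM scaling, and the quasi-likelihood test over all 6 libraries with 3 residual degrees of freedom (2 when a library is left out), adjusted by Benjamini-Hochberg over all tested genes at a threshold of 0.05. CPM use TMM-scaled library sizes, and gaps between groups used log2 CPM with a prior count of 2. The scripts were tested on simulated data. limma 3.58.1 and DESeq2 1.42.0 served as alternatives. Totals between 16566791 and 17312833 counts set the counting error, which is smaller than the spread between aging SNL libraries.

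The genes, 42 lists and tests were chosen with earlier results of these data known. Named genes were those called (none were), the 12 with the largest gap in each direction (provisional names and genes averaging under 5 CPM left out), the 1 or 2 members of each list with the lowest p, and a fixed set of receptor, inflammatory and matrix genes. Replicate numbers of the labels are not stated to pair the libraries. Promoter sequences come from RefSeq on GRCm38.p6, which is not the build of the counts.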

Additional observations from a re-analysis of the deposited data

How the results depend on the processing

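With all 6 libraries, no gene was called under these alternatives (DESeq2 size factors, total counts without scaling, no filter on low counts, a mean of at least 5 CPM, limma on log2(TPM + 1) and on log2(TPM + 0.1), limma voom with sample quality weights, and the replicate block) or with the 4 compared libraries alone. DESeq2's Wald test called 3, all higher (Plau, and Galnt14 and Gm44504, named after their values were seen). Leaving out 1 library gave between 0 and 2810 calls; only the fit without aging SNL replicate 2 gave any. The genes with no overlap between the groups went from 3599 to between 6610 and 11539 when 1 library was left out, since a side of 1 library overlaps less often by construction. Il1rl2 ran from -1.76 to 0.0855 on the log2 scale.

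The replicate numbers may or may not pair the libraries: the difference of replicate 1 minus 2 correlated across genes at 0.286 between aging SNL and spesolimab, 0.246 between aging SNL and control and 0.419 between spesolimab and control, and with 2 numbers the pairing is not established. The fit with the replicate block called 0 genes. Both fits chosen after seeing the data combined the block with leaving out an aging SNL library: without replicate 1 it called 195 genes (121 higher, 74 lower) on 1 residual degree of freedom, and without replicate 2 it called 4720 genes.

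TPM without further scaling moved the median of all genes by 0.14 and 0.16 for pseudocounts of 1 and 0.1, and the lists with a median below 0 went from 22 of 40 to 13 under both. There Cox5a was 0.0106 and 0.0107, Mki67 0.124 and 0.141, and Myd88 0.082 and 0.084, against negative values in the edgeR fit. When 1 library was left out, besides Il1rl2 these 9 named genes changed sign, Myd88 again among them, running from -0.62 to 2.95 for Acan, -0.0384 to 0.44 for Adamts4, -1.38 to 0.70 for Adamts5, -0.0282 to 0.61 for Csgalnact1, -0.95 to 0.25 for Il1rap, -0.18 to 0.0416 for Myd88, -0.99 to 0.41 for Prg4, -0.19 to 1.35 for Sox9 and -1.44 to 0.17 for Timp1. Of the 91 named genes 79 held their direction in every alternative that gave them a value. Values were given for 83 of them under the 5 CPM minimum and for 89 in the 4 libraries alone. Named genes were chosen in part by their gap or low p in these same data. For those a held direction follows partly from the choice and is no support.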
